A study of Mus musculus with 12 samples.

Results

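Etoposide was compared with LPS alone in activated mouse B cells, over 8 of the 12 mRNAseq libraries of the series. Primary splenic B cells of C57BL/6Babr mice, 8 to 12 weeks old, were activated with LPS (10 µg/ml) for 48 h in both groups. The 4 libraries of the LPS group received nothing further, and the 4 libraries of the etoposide group received etoposide (20 µM) for 4 h. Whether the LPS group was also harvested after the added 4 h is not given by the labels. The libraries of each group carry Illumina indexes that the other group lacks, so that index and treatment cannot be told apart. The remaining 4 libraries, with the ATM inhibitor KU55933, were not compared here. They entered only through the deposited standard errors, which are pooled over all 12 libraries, and through the recovery of size factors. Members were the 8 libraries with these labels. The response was described over gene families and levels of expression, beyond fixed lists of 40 p53 targets and 30 mitotic genes. Whether genes outside these lists depend on p53 was not tested.

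Etoposide is a poison of type II topoisomerases. These enzymes pass one DNA duplex through a transient break in another, and the drug holds them at the break, which leaves double-strand breaks that activate ATM and p53. LPS drives resting B cells into growth and division through TLR4, and dividing B cells carry much topoisomerase II alpha.

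The deposited normalised counts of a condition were 1 fitted mean per gene times the size factor of each library. The largest deviation between columns of a condition was 1.42e-14 on the log2 scale. After division by size factor all 4 libraries of a group therefore gave the same value, and each gene has 1 normalised count with LPS and 1 with etoposide. Fitted totals ran from 20740000 to 23935700 normalised counts per library with LPS and from 22523500 to 30575200 with etoposide. The error of each change is the standard error (SE) of the log2 fold change in the authors' table. At mean counts under 100 this SE had a median of 0.31, and at 1000 or more it was 0.10, where a change of about 0.19 on the log2 scale equals the half-width of a 95% interval. Changes below are log2 etoposide over LPS ± SE.

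Of 15435 genes with at least 10 normalised counts in either condition, 4053 were higher and 4003 were lower with etoposide at an adjusted p under 0.01 in a two-sided Wald test. This is 26.3% and 25.9% of the genes tested, or 52.2% in both directions, and every count of members given here is to be read against these shares. Of the genes tested 1116 were under 10 counts with LPS and 254 were under 10 with etoposide. Such genes entered only through the condition where they are high, in the lists as well. The median change over all genes was -0.02. Sizes were unequal between the directions. At least 2-fold rises made up 14.3% of the genes tested and at least 2-fold falls 6.17%, and 410 genes rose at least 8-fold against 2 that fell as far. When libraries were scaled by their totals, all changes moved up by 0.13 and 62.5% of the called genes were higher, against 50.3% with size factors.

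The targets of the drug were both lower. Top2a, which encodes topoisomerase II alpha (chromosome 11, 98992943 to 99024189, minus strand, GRCm38), had 24987 normalised counts with LPS and 9257 with etoposide (-1.43 ± 0.13). Top2b, which encodes the beta form (chromosome 14, 16365179 to 16435462, plus strand), had 8379 and 6104 (-0.46 ± 0.12, adjusted p = 0.000246), and its call was lost with library totals and with quantile normalisation. Per kb of exonic length Top2a stood at 2772 counts with LPS and at 1027 with etoposide. Top2b stood at 573 and 418 counts per kb, so that Top2a remained above Top2b. Of the 6 topoisomerase genes tested 4 fell, Top3a and Top1 among them, and Top1mt, the mitochondrial type I enzyme, rose from 201 to 364 counts (0.86 ± 0.17).

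Outside the list of 40 p53 targets, the largest rises among genes with a mean count over 1000 were those of 6 genes. Whether they respond to p53 was not tested. Zfp365, a zinc finger gene (chromosome 10, 67886103 to 67912662), rose from 64.8 to 4246 counts (6.03 ± 0.13). Prrg4, a membrane protein with a Gla domain, rose from 170 to 6932 counts (5.35 ± 0.09). These 2 genes, along with Fam212b (4.98 ± 0.12), Enc1 (4.85 ± 0.08), the ephrin receptor Epha2 (4.76 ± 0.22) and Zfp385a (4.65 ± 0.14), had at most 209 counts with LPS and at least 3365 with etoposide.

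The largest falls at that level included a histone variant gene and genes of B cell receptor signalling. H2afx encodes the histone variant whose phosphorylated form marks DNA breaks (chromosome 9, 44334694 to 44336077), and it fell from 1880 to 227 counts (-3.05 ± 0.23). Bank1, an adaptor of B cell receptor signalling (chromosome 3, 136053363 to 136326066), fell from 8095 to 1419 counts (-2.51 ± 0.13). Cd22, an inhibitory co-receptor of the B cell receptor, fell from 23996 to 4248 (-2.50 ± 0.13). Snn (-2.72 ± 0.20) and the histone deacetylase gene Hdac9 (-2.43 ± 0.14) were also among the largest.

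Between 100 and 1000 mean counts the rises started from almost nothing. Notch3, a Notch receptor (chromosome 17, 32120820 to 32166852), went from 5.90 to 1121 counts (7.57 ± 0.31). Sec14l5 (7.60 ± 0.33), the RNA-binding protein gene Celf5 (7.31 ± 0.28), the adhesion molecule gene Mcam (6.78 ± 0.26), the axon guidance receptor gene Robo3 (6.57 ± 0.29) and the transporter gene Slc4a11 (6.42 ± 0.28) had at most 12.7 counts with LPS. The falls in this range were smaller, from Pif1, a DNA helicase gene (1070 to 140 counts, -2.94 ± 0.19), and the chemokine scavenger gene Ackr2 (309 to 46.8, -2.72 ± 0.27) to Fam64a (612 to 111, -2.46 ± 0.15). Srpk3, Serpinb1a and Arhgef39 lay between them.

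**Figure D1:**
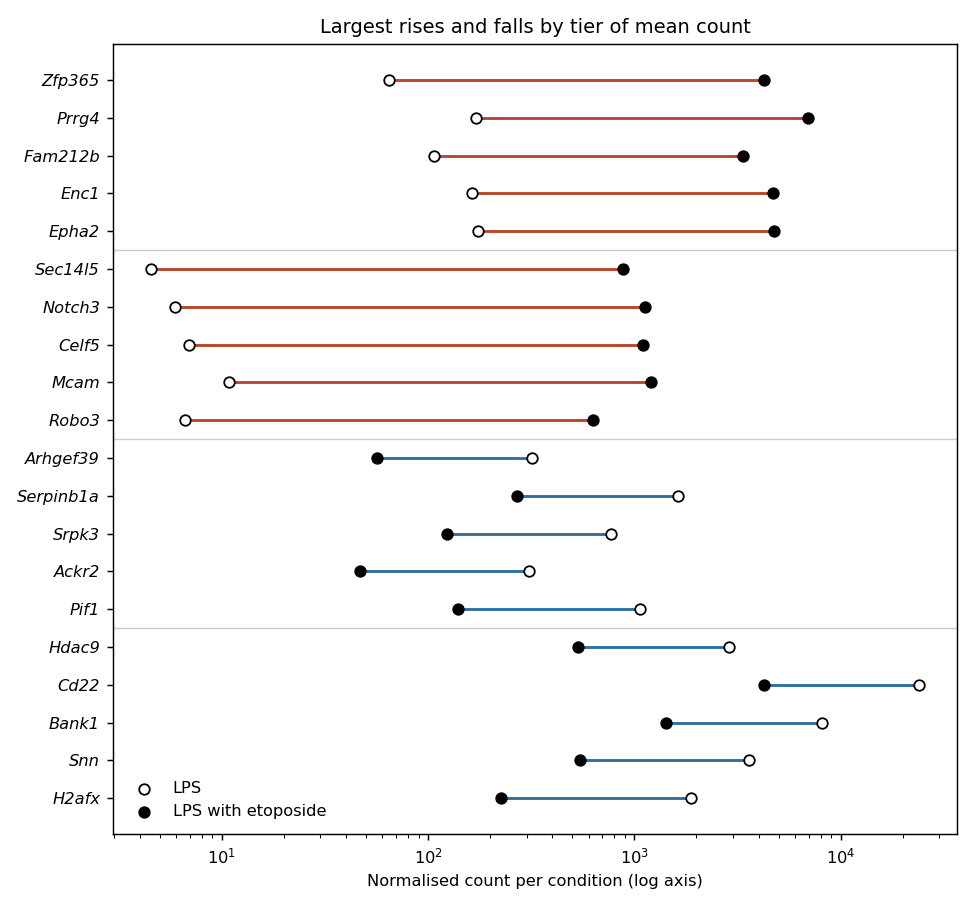
Normalised counts on a log axis for the 20 genes with the largest rises and falls, 5 in each block, at mean counts over 1000 (top and bottom blocks) and 100 to 1000 (middle blocks). Open circles are LPS, filled circles LPS with etoposide, and each circle is the 1 fitted value of a condition. The lines of the rises are longer than those of the falls.

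Some genes were all but silent with LPS and abundant with etoposide. Under 10 counts with LPS and at least 100 with etoposide held for 55 of the 1116 tested genes under 10 with LPS, and 53 of the 55 were protein-coding. Of the 254 tested genes under 10 with etoposide none had at least 100 with LPS. The 55 passed the filter on low values through their level with etoposide alone. The 55 genes had a median of 6.24 counts with LPS and 153 with etoposide, and their changes ran from 3.45 to 7.60. Besides Notch3 they included Tnfsf4, which encodes OX40 ligand (8.95 to 749 counts), and the hairy-related Notch target gene Heyl (5.02 to 214). Fitted means are moderated towards equal values, so that the low level with LPS is an estimate and not a count of reads.

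The median change went down with the level of expression. Genes were put in 10 equal groups by the mean count of both conditions per kb of exonic length. In the lowest group, under 7.10 counts per kb, the median change was 0.79, with 44.3% of genes higher and 3.32% lower. In the highest group, from 899.9 counts per kb, the median was -0.11, with 14.8% higher and 33.5% lower, and it turned to 0.02 with library totals and 0.03 with quantile normalisation. The share of lower genes was highest in the ninth group, at 39.3%.

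The filter on low values bears on the lowest group. In that group 52.7% of the genes had under 10 counts in one of the conditions, and such genes enter only through the condition where they are high. With at least 10 counts required in both conditions the lowest group had a median of 0.23 and the highest one of -0.11. These groups hold other genes, since that filter depends on the change itself and moved the upper bound of the lowest group from 7.10 to 13.4 counts per kb. With quantile normalisation, which sets both distributions equal, the lowest group had 0.11. Changes were also more alike at high levels, where the quartiles lay 0.60 apart, against 1.78 at the lowest. The median SE was 0.10 in the highest group and 0.37 in the lowest, and the part of error in this spread was not tested. With at least 10 counts in both conditions the quartiles lay 0.58 apart in the highest group and 1.02 in the lowest.

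**Figure D2:**
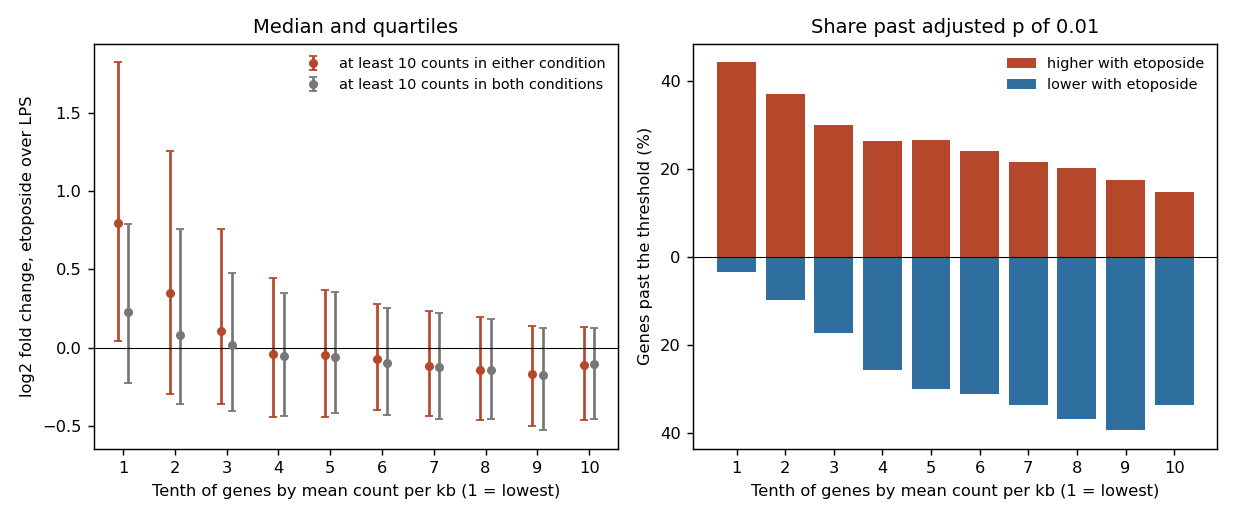
Change with etoposide in 10 equal groups of genes by mean count per kb of exonic length. Left, medians (points) and quartiles (bars) for genes with at least 10 counts in either condition (red) or in both (grey). Right, the percentage of genes past an adjusted p of 0.01 in each direction. Medians go from 0.79 to -0.11 with the filter on either condition, and the last turns to 0.02 with library totals.

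Long genes were lower more often than short ones. Genes were put in 10 equal groups by their span from start to end in the annotation. The median change was between -0.10 and 0.04 in the first 9 groups and -0.26 in the group of genes longer than 98.9 kb. In that group 39.4% of the genes were lower, and 13.3% fell at least 2-fold, against 3.97% to 7.49% in the other groups.

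Length and level were looked at together in 9610 protein-coding genes with more than 1 exon and a mean count of at least 100. The longest group there, from 106 kb, had a median of -0.44 with 53.9% of genes lower and 14.4% higher. The shortest group, up to 5.72 kb, had a median of -0.10 with 29.1% lower and 20.9% higher. These genes were also split into 3 equal groups by level and 3 by span. At each level the longest genes had the lowest median. It was -0.13 at low level, -0.26 at middle level and -0.44 at high level, where 63.1% of the long genes were lower.

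**Figure D3:**
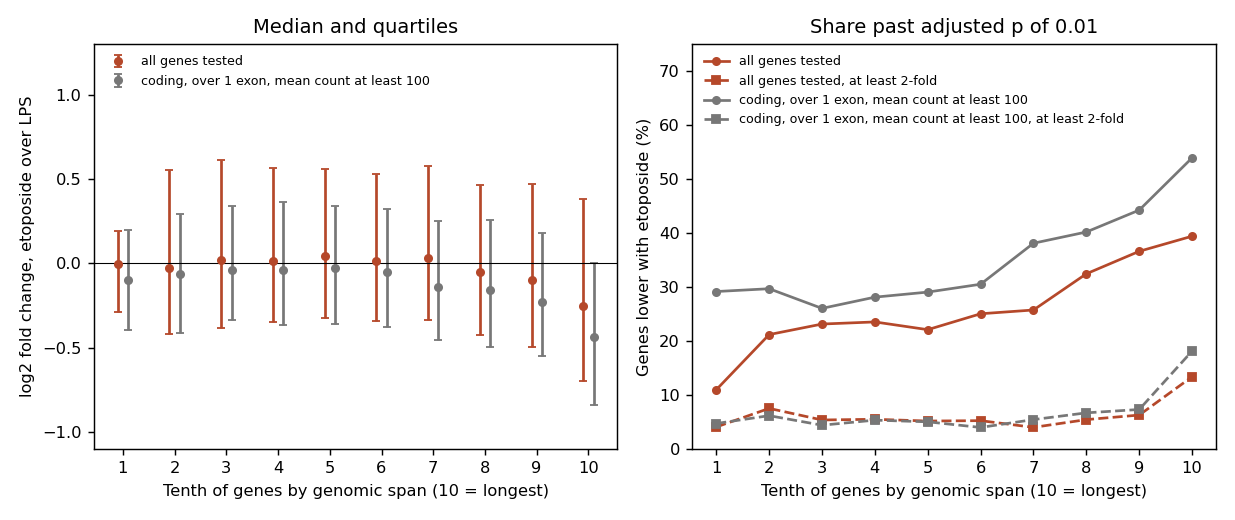
Change with etoposide in 10 equal groups of genes by genomic span, for all genes tested (red) and for protein-coding genes with more than 1 exon and a mean count of at least 100 (grey). Left, medians and quartiles. Right, the percentage of genes lower past an adjusted p of 0.01 (solid) and lower by at least 2-fold (dashed). The longest group stands apart at 13.3% and 18.1% for falls of at least 2-fold.

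Gene lists were described by how many members passed the test in each direction and by their median, beside the median of -0.02 over all genes. In the plot of the lists the lowest medians beside that of mitosis belonged to B cell identity factors, replication-dependent histones, B cell receptor signalling and cholesterol synthesis. The highest after the p53 target list belonged to immediate early factors and the pro-death Bcl2 family. The pro-death list shares Bax, Bbc3 and Pmaip1 with the p53 targets, and its median was not taken without them.

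**Figure D4:**
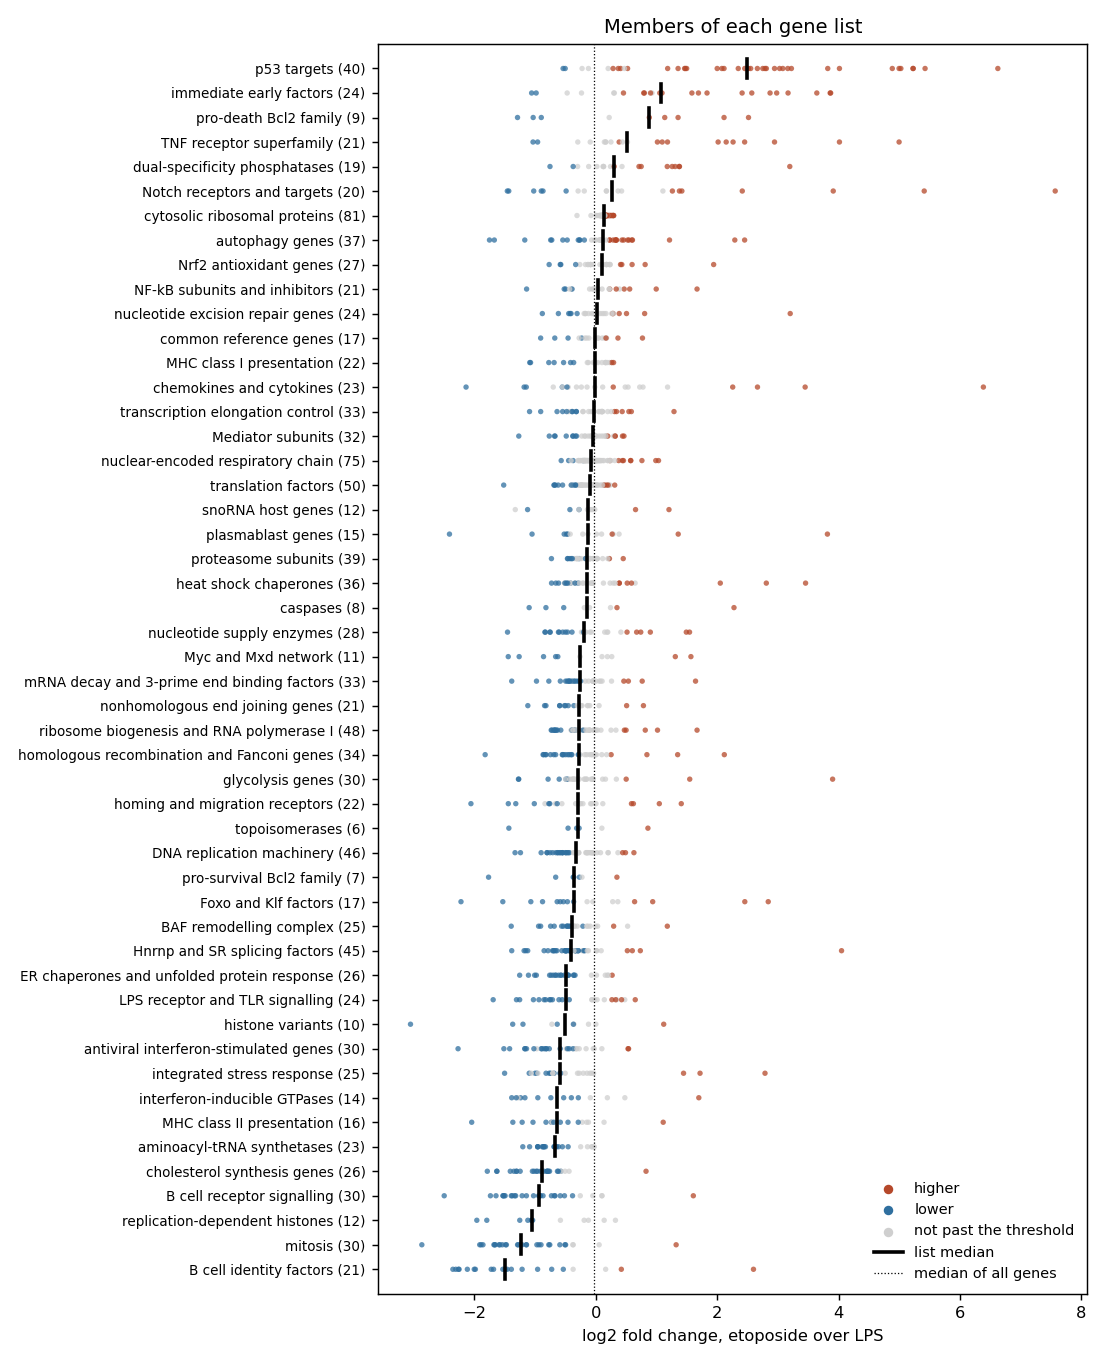
Log2 fold change, etoposide over LPS, of the tested members of 50 gene lists (number tested in parentheses), ordered by median. Points are genes, red where higher and blue where lower past an adjusted p of 0.01 and grey otherwise. Black bars are list medians and the dotted line is the median of all genes. Medians run from -1.49 to 2.49.

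The transcription factors that hold the B cell programme fell with few exceptions. Of 21 identity factors 17 fell and 2 rose, with a median of -1.49. Ikzf1, which encodes Ikaros, fell from 19094 to 3732 counts (-2.36 ± 0.12), and Pax5, the commitment factor of the lineage, fell from 5517 to 1115 (-2.31 ± 0.13). Both are long genes, and the median span of this list was 87.9 kb. The exceptions were Id2, an inhibitor of E proteins, which rose from 114 to 690 counts (2.60 ± 0.23), and the Ets factor gene Spib, which rose from 12684 to 16979 (0.42 ± 0.10).

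Transcripts of most genes of B cell receptor signalling were lower, and signalling itself was not measured. Of 30 genes 25 fell and 1 rose, with a median of -0.93. The falls were led by Cd22 and by Vav2, a guanine nucleotide exchange factor, which went from 5545 to 1664 counts (-1.74 ± 0.21). The rise was that of Cd81, a tetraspanin, from 3255 to 9916 counts (1.61 ± 0.06). The summed count of the 30 genes was 48.8% lower. The median span of this list was 52.0 kb.

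The markers of the B cell itself took part in this. Of 10 B cell markers 9 fell and none rose, and their summed count was 222415 with LPS and 143645 with etoposide. In bulk RNA, fewer cells of a type and less RNA per cell cannot be told apart. Of 11 T cell markers 8 were under 10 counts in both conditions, Cd3e at 0.70 and 1.40 among them. The other 3 included 2 rises, and the summed level was 53.5 with LPS and 114 with etoposide. The 15 myeloid markers summed to 5703 and 4779, most of it Mpeg1, and S100a8, S100a9, C1qa, C1qb, Marco and Elane were under 10 counts in both conditions. Of the 9 myeloid markers tested 4 rose and 1 fell, with a median of 0.48. The rises were Mpo (1.26 to 13.8 counts, 3.46 ± 0.50), Cd14 (5.15 to 24.03, 2.22 ± 0.41), Csf1r (4.16 to 10.3, 1.305 ± 0.43) and Cd68 (104 to 210, 1.01 ± 0.16), and Itgam fell (219 to 128, -0.78 ± 0.15). Mpo, Cd14 and Csf1r were under 10 counts with LPS and passed the filter only through etoposide. The count of rises and the median therefore depend on that filter. The 9 red blood cell markers summed to 219 and 190, with 1 rise and 1 fall among 3 tested, and the natural killer and dendritic cell markers to 3042 and 1986, most of it Flt3. The part of other cells in the results was not tested beyond these levels.

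Genes of antigen presentation split between the classes. Of 16 genes of MHC class II presentation 10 fell and 1 rose, with a median of -0.64. Ciita, the master regulator of class II genes, fell from 4421 to 1071 counts (-2.04 ± 0.15), and H2-DMb2, a chain of the peptide exchanger, fell from 6335 to 2456 (-1.37 ± 0.14). Ctsl, a lysosomal protease gene, rose from 147 to 317 (1.11 ± 0.16). The class I list had 7 falls and 2 rises in 22 genes and a median of -0.01, which becomes 0.12 with library totals. Psmb10, an immunoproteasome subunit, fell from 1509 to 710 counts (-1.09 ± 0.10), while the peptide transporter gene Tap1 rose from 11051 to 13539 (0.29 ± 0.09). Many H2 genes are near-identical copies, and their counts may be shared between paralogs.

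Transcripts of the LPS receptor and its signalling genes were lower in part. Of 24 genes 13 fell and 4 rose, with a median of -0.50. Cd180, a TLR4-like receptor of B cells, fell from 3482 to 1078 counts (-1.69 ± 0.07), and the RNA sensor gene Tlr7 from 4151 to 1678 (-1.31 ± 0.07). The adaptor gene Myd88 rose from 1344 to 2109 (0.65 ± 0.11) and the kinase gene Map3k7 from 3099 to 4159 (0.42 ± 0.05). NF-kB subunits and inhibitors had no common direction, with 6 rises and 4 falls in 21 genes and a median of 0.04. Nfkb1, the precursor of p50, fell from 12670 to 5748 counts (-1.14 ± 0.12). The nuclear inhibitor gene Nfkbid rose from 1047 to 3326 (1.67 ± 0.26) and the deubiquitinase gene Cyld from 3676 to 7329 (1.00 ± 0.06).

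Among cytokines and receptors of migration the share called was at or below that of all genes, at 43.5% and 50%. Tnfsf4 had the largest rise of the 23 cytokine genes tested (6.39 ± 0.29), followed by Csf1, the macrophage growth factor (170 to 1859 counts, 3.45 ± 0.13). Ltb, which encodes lymphotoxin beta, fell from 1572 to 357 (-2.14 ± 0.40) and Lta from 147 to 64.6 (-1.18 ± 0.19). In all 5 of the 23 rose, 5 fell and 13 did not pass. Of 22 homing receptors 7 fell, 4 rose and 11 did not pass. The sphingosine phosphate receptor gene S1pr4 fell from 882 to 325 counts (-1.44 ± 0.21), and the lipid receptor gene Gpr132 rose from 2388 to 6338 (1.41 ± 0.14).

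Genes of the plasmablast, the antibody-secreting stage, did not move as a group. Of 15 tested 3 rose, 5 fell and 7 did not pass, with a median of -0.13 that becomes 0.00445 with library totals. Sdc1, which encodes syndecan-1 (CD138), rose from 138 to 1941 counts (3.82 ± 0.18), and Slamf7 from 2006 to 5143 (1.36 ± 0.12). Derl3, an ER degradation factor, fell (-1.05 ± 0.11). Ighm, the constant region of IgM, had 343318 counts with LPS and 289589 with etoposide, which did not pass the test (-0.25 ± 0.12, adjusted p = 0.0667).

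Interferon-stimulated genes were lower, with exceptions inside close families. Of 30 antiviral genes 17 fell and 2 rose, with a median of -0.59. Ifit3 fell from 635 to 132 counts (-2.27 ± 0.22) and Ifit2 from 1192 to 417 (-1.51 ± 0.14), both RNA-binding effectors. The myxovirus GTPase genes Mx1 (2387 to 3450, 0.53 ± 0.15) and Mx2 (1056 to 1535, 0.54 ± 0.12) were the rises. Of the 14 interferon-inducible GTPases of immunity to vacuolar pathogens 9 fell and 1 rose. Tgtp2 fell from 1013 to 388 counts (-1.39 ± 0.22) and Ifi47 from 2919 to 1177 (-1.31 ± 0.13), whereas Igtp rose from 1776 to 5761 (1.70 ± 0.10). Tgtp1 and Tgtp2 are near-identical and their reads cannot be separated with certainty.

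Immediate early transcription factors, the first genes that growth and stress signals switch on, rose in most cases. Of 24 tested 17 rose and 2 fell, with a median of 1.07. Fos rose from 56.7 to 829 counts (3.87 ± 0.26) and Fosl1 from 23.01 to 334 (3.86 ± 0.19). The 2 falls were the AP-1 partners of lymphocytes, Batf (2699 to 1297, -1.06 ± 0.12) and Batf3 (24.7 to 12.5, -0.98 ± 0.30). Dual-specificity phosphatases, which switch off MAP kinases, had 9 rises and 2 falls in 19 genes and a median of 0.30. Dusp8 rose from 25.02 to 229 counts (3.20 ± 0.26), and Dusp12 fell from 487 to 288 (-0.75 ± 0.12).

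Factors of quiescence and of growth did not move as blocks. Of 17 Foxo and Klf factors 9 fell and 4 rose. Klf2, a quiescence factor of lymphocytes, fell from 877 to 188 counts (-2.22 ± 0.22), and Foxp1 from 8928 to 3087 (-1.53 ± 0.17). Klf4 rose from 19.1 to 137 (2.84 ± 0.22) and the antiproliferative gene Tob1 from 389 to 2132 (2.46 ± 0.09). In the Myc and Mxd network 5 of 11 genes fell and 2 rose. Myc itself fell from 3744 to 1560 counts (-1.26 ± 0.17), and its antagonist Mxd1 rose from 358 to 889 (1.31 ± 0.10).

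The Notch pathway showed the widest range of the lists. Of 20 members tested 7 rose and 6 fell, with a median of 0.27 and changes from -1.46 to 7.57. The receptor Notch3 and the target gene Heyl (5.41 ± 0.32) led the rises. Both were under 10 counts with LPS and passed the filter only through etoposide, and 2 of the 22 listed members were below it. The range and the count of rises depend on this filter. The coactivator genes Maml2 (845 to 307 counts, -1.46 ± 0.17) and Maml3 (371 to 137, -1.43 ± 0.16) led the falls. Summed over the list, counts with etoposide were 0.19% below those with LPS.

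Ribosomal protein genes were slightly higher. Of 81 cytosolic ribosomal protein genes 29 rose and none fell, and 79 had a change above 0. The changes were small, with a median of 0.14, and the largest that passed the test was Rps27 (11713 to 14362 counts, 0.29 ± 0.08). With library totals 69 of the 81 rose, and with quantile normalisation 54 rose and 1 fell. The list had a median level of 12845 counts per kb, and its summed count was 10.1% higher, a gain of 220698 counts. Ribosomal protein genes have many processed pseudogenes, which can share their reads.

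Aminoacyl-tRNA synthetases, which charge tRNAs with amino acids, went the other way. Of 23 genes 18 fell and none rose, with a median of -0.68. The mitochondrial Fars2 (381 to 166 counts, -1.20 ± 0.14) and the cytosolic Farsb (3406 to 1599, -1.09 ± 0.15), both for phenylalanine, fell the most. Translation factors changed little as a list, with 10 falls and 4 rises in 50 genes and a median of -0.10, which becomes 0.04 with library totals. Eef2k, the kinase that halts elongation, fell from 562 to 196 counts (-1.52 ± 0.12), and the cap-binding factor gene Eif4e from 3461 to 2146 (-0.69 ± 0.13). Eif4ebp2, a repressor of cap-dependent initiation, rose from 3053 to 3790 (0.31 ± 0.06).

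Ribosome biogenesis had 12 falls and 5 rises in 48 genes and a median of -0.28. Nop58, a snoRNP core protein, fell from 5692 to 3421 counts (-0.73 ± 0.15). Rrn3, which recruits RNA polymerase I to the ribosomal RNA genes, rose from 2085 to 6627 (1.67 ± 0.12), and Utp20, a processome factor, from 4228 to 8555 (1.02 ± 0.15). Among 12 snoRNA host genes 2 rose and 3 fell.

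Splicing regulators were lower in most cases. Of 45 Hnrnp and SR genes 32 fell and 4 rose, with a median of -0.42. Hnrnpd, also known as AUF1, fell from 7622 to 2918 counts (-1.39 ± 0.10) and Hnrnpr from 4667 to 2058 (-1.18 ± 0.07). Srsf12 rose from 6.07 to 101 counts (4.05 ± 0.32) and Hnrnpll from 49.3 to 81.9 (0.73 ± 0.21), a call lost with quantile normalisation. Of 33 factors of mRNA decay and 3′ end binding 16 fell and 4 rose. Cnot2, of the deadenylase complex, fell from 2845 to 1445 counts (-0.98 ± 0.11). The Roquin genes, whose products bind stem-loops of immune mRNAs, rose, Rc3h2 from 1930 to 6029 (1.64 ± 0.07) and Rc3h1 from 3472 to 5898 (0.76 ± 0.11). Tia1, the RNA-binding protein that the study is about, was looked up after other values had been seen and had 3884 and 3266 counts (-0.25 ± 0.07, adjusted p = 0.00072). With library totals all changes, this one included, move up by 0.13, and its call under that scaling is not given here. These are mRNA counts, and in the paper's immunoblots etoposide left the amount of Tia1 protein unchanged.

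Chaperones of the ER fell. Of 26 genes of the ER and the unfolded protein response 20 fell and 1 rose, with a median of -0.49. The sensor gene Atf6 fell from 9419 to 3948 counts (-1.25 ± 0.10) and the disulfide isomerase gene Pdia4 from 10713 to 4965 (-1.11 ± 0.07). Edem1, which sends misfolded glycoproteins to degradation, rose from 9087 to 10953 (0.27 ± 0.05).

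Promoters of this list often hold the ER stress element, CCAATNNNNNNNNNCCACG, searched on both strands in the 300 bases around each start site in the RefSeq promoter table (GRCm38.p6). It stood in 9 of 23 matched promoters of the list in 0.17% of the 10590 matched promoters of tested genes and in 0.131% of the 26739 promoters of the whole table, which includes genes not tested here. The element includes a CCAAT box, which stood in 87.0% of the promoters of the list, 39.1% of those of tested genes and 37.9% of the table. The stretches of 4 members that fell are shown, with the element in capitals, to show what was matched.
Ero1lb (chr13:12565677-12565706, plus strand, element on the opposite strand): ggcctCGTGGTCCCGCCTCATTGGccgccg
Dnajc3 (chr14:118937822-118937851, plus strand): cacaaCCAATCAGCGCCAACCACGacccgg
Hspa5 (chr2:34772020-34772049, plus strand): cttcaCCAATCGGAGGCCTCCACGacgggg
Hsp90b1 (chr10:86705632-86705661, minus strand): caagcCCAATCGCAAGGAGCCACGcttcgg
These 4 genes encode an ER oxidase, a co-chaperone and the chaperones BiP and GRP94. Ero1lb went from 7945 to 4029 counts (-0.98 ± 0.06) and Dnajc3 from 4375 to 2627 (-0.74 ± 0.06). Hspa5 went from 30348 to 19267 counts (-0.66 ± 0.06) and Hsp90b1 from 26115 to 17595 (-0.57 ± 0.08). The element did not separate the list by size of change. Of the 9 members with it 8 fell, at a median of -0.47, and of the 14 without it 9 fell and 1 rose, at a median of -0.46.

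The integrated stress response, in which ATF4 raises amino acid supply when initiation is curbed, had 10 falls and 3 rises in 25 genes and a median of -0.59. Chac1, a glutathione-degrading enzyme gene, fell from 428 to 151 counts (-1.50 ± 0.38), and Trib3, a pseudokinase gene, from 775 to 362 (-1.098 ± 0.28). The rises were Cebpb (47.0 to 155, 1.72 ± 0.26), Ppp1r15a, which encodes GADD34 (1272 to 3464, 1.45 ± 0.17), and Sesn2, which is also a p53 target.

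The core of the C/EBP-ATF response element, TGATGNAA on either strand, stood in 5 of 23 matched promoters of this list, in 2.36% of those of tested genes and in 3.99% of the table. The 4 of these 5 that fell are shown with the core in capitals.
Chac1 (chr2:119351038-119351067, plus strand, core on the opposite strand): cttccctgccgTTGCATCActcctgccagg
Trib3 (chr2:152344028-152344057, minus strand, core on the opposite strand): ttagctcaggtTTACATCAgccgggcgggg
Asns (chr6:7693214-7693243, minus strand): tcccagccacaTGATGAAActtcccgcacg
Slc7a11 (chr3:50443661-50443690, minus strand): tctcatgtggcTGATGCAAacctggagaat
Asns, which makes asparagine, fell from 3384 to 1691 counts (-1.001 ± 0.23), and Slc7a11, the cystine transporter gene, from 384 to 257 (-0.58 ± 0.19). The 5 members with the core had a median change of -1.001, with 4 falls and no rise. The 18 without it had a median of -0.40, with 5 falls and 3 rises. A match of letters is a description of the window and does not show that a factor was bound.

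Other stress programmes were selective. Of 36 heat shock chaperone genes 7 rose and 9 fell, with a median of -0.14 that becomes 0.02 with quantile normalisation. The inducible HSP70 genes rose, Hspa1a from 13.4 to 147 counts (3.46 ± 0.31) and Hspa1b from 27.9 to 196 (2.81 ± 0.29). They are near-identical copies. Hsph1, an HSP110 gene, fell from 3830 to 2311 (-0.73 ± 0.16). Of 27 Nrf2 antioxidant genes 5 rose and 4 fell. Hmox1, the haem oxygenase, rose from 167 to 642 counts (1.94 ± 0.23), and Keap1, the inhibitor of Nrf2, fell from 1445 to 848 (-0.77 ± 0.14).

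Autophagy genes were called in most cases and in both directions. Of 37 genes 16 rose and 11 fell, with a median of 0.11. The initiating kinase gene Ulk1 rose from 917 to 5020 counts (2.45 ± 0.08) and Wipi1, a phagophore protein gene, from 99.6 to 487 (2.29 ± 0.13). Uvrag, a Beclin-1 partner, fell from 3531 to 1048 (-1.75 ± 0.17), and Tfeb, a transcription factor of lysosomal genes, from 1504 to 472 (-1.67 ± 0.16). Proteasome subunits moved little, with 8 falls and 2 rises in 39 genes and a median of -0.14 that becomes 0.05 with quantile normalisation. Psmd14 went from 4756 to 2866 counts (-0.73 ± 0.12).

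Cholesterol synthesis was the metabolic list that fell most uniformly. Of 26 genes 22 fell and 1 rose, with a median of -0.88 and 48.3% fewer summed counts. Hmgcs1, the synthase of HMG-CoA, fell from 16047 to 4647 counts (-1.79 ± 0.15), and Lss, which closes the sterol rings, from 5695 to 1837 (-1.63 ± 0.19). Scap, the escort of the SREBP factors that drive these genes, rose from 2130 to 3780 (0.83 ± 0.10).

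Genes of energy metabolism changed less. Of 75 nuclear genes of the respiratory chain 9 rose, 4 fell and 62 did not pass, with a median of -0.07 that becomes 0.06 with library totals. Ndufb2 rose from 316 to 646 counts (1.03 ± 0.14) and Ndufs7 fell from 1060 to 714 (-0.57 ± 0.15). Of 30 glycolysis genes 6 fell and 3 rose, with a median of -0.29. The median SE of this list was 0.27, against 0.14 over all genes, so fewer calls need not mean smaller changes. Pfkfb3, which makes the activator of phosphofructokinase, fell from 2650 to 1095 counts (-1.27 ± 0.37), and Ldhb, the heart-type lactate dehydrogenase, rose from 10.1 to 151 (3.90 ± 0.32). Of 28 enzymes of nucleotide supply 12 fell and 6 rose. Cad, which starts pyrimidine synthesis, rose from 7242 to 20362 counts (1.49 ± 0.14), while Samhd1, which degrades dNTPs, fell from 12625 to 4606 (-1.45 ± 0.08).

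Genes of DNA replication fell in part. Of 46 tested 20 fell and 3 rose, with a median of -0.32. The catalytic polymerase subunits Pold1 (4148 to 1649 counts, -1.33 ± 0.11) and Pola1 (2927 to 1238, -1.24 ± 0.09) fell the most, and the primase gene Prim1 rose from 2071 to 3200 (0.63 ± 0.12). The E2F core TTTCCCGC, on either strand, stood in 9 of 38 matched promoters, in 2.08% of those of tested genes and in 1.12% of the table. It did not mark the members that fell. With the core 4 of 9 fell at a median of -0.28, and without it 12 of 29 fell at a median of -0.34.

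DNA repair genes fell more often than they rose in 2 of 3 pathways, with no test of a difference between them. Of 34 genes of homologous recombination and the Fanconi pathway 18 fell and 4 rose, with a median of -0.28. Members of one family differed, with Rad51b lower (133 to 37.6 counts, -1.82 ± 0.19) and Rad51d higher (694 to 3012, 2.12 ± 0.07), and Rad52 rose from 413 to 1051 (1.35 ± 0.08). Of 21 genes of end joining 9 fell and 2 rose, also with a median of -0.28. Parp1, a sensor of DNA breaks, fell from 12425 to 5717 (-1.12 ± 0.10), Tdp1, which removes topoisomerase adducts from DNA ends, from 1437 to 801 (-0.84 ± 0.15), and Poll, a gap-filling polymerase, rose from 601 to 1036 (0.78 ± 0.07). Nucleotide excision repair had 6 rises and 6 falls in 24 genes, and the nuclease gene Ercc5 rose from 665 to 6124 counts (3.20 ± 0.09).

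Chromatin genes fell more often than they rose. Replication-dependent histone mRNAs lack poly(A) tails and are poorly captured, and 12 of the 64 listed passed the filter, of which 7 fell and none rose. Hist2h2be was named after its values were seen and went from 272 to 125 counts (-1.12 ± 0.16). Among 10 histone variants 5 fell and 1 rose, with H2afx the lowest and H2afj rising from 685 to 1488 counts (1.12 ± 0.22). Of 25 subunits of the BAF remodelling complex 13 fell and 2 rose. Arid1b fell from 3590 to 1366 (-1.39 ± 0.23).

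The general transcription machinery had no common direction. Of 32 Mediator subunits 9 fell and 5 rose, and of 33 genes of elongation control 9 fell and 6 rose, with medians of -0.04 and -0.03 that become 0.09 and 0.11 with library totals. Cdk19, the Mediator kinase, fell from 2955 to 1226 counts (-1.27 ± 0.13), and Leo1, of the PAF complex, rose from 813 to 1986 (1.29 ± 0.12).

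Regulators of cell death moved apart. Of 9 pro-death Bcl2 members 5 rose and 3 fell. Bax, Bbc3 and Pmaip1 are also p53 targets, and the other rises were Bcl2l11, which encodes BIM (5062 to 9327 counts, 0.88 ± 0.15), and Bik (7.35 to 16.1, 1.14 ± 0.39), whose call was lost with quantile normalisation and without a filter. The falls included Bid (2704 to 1106, -1.29 ± 0.09) and Bmf (1300 to 636, -1.03 ± 0.17). Of 7 pro-survival members 5 fell, led by Bcl2 (5916 to 1738, -1.77 ± 0.12), and Bcl2l1, which encodes BCL-XL, rose from 1422 to 1809 (0.35 ± 0.12). Among 8 caspases 2 rose and 3 fell, and the initiator genes Casp9 (1016 to 475, -1.098 ± 0.07) and Casp8 (2548 to 1441, -0.82 ± 0.13) were among the falls.

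Of 21 receptors of the TNF family tested 11 rose, 2 fell and 8 did not pass, with a median of 0.52. Their summed count was 0.74% lower. Of the rises, 3 belong to the p53 target list, and the largest others were Tnfrsf26 (521 to 2852 counts, 2.45 ± 0.14) and Tnfrsf25 (2.09 to 10.0, 2.26 ± 0.52), whose call was lost with quantile normalisation. The 2 falls were the receptors of the B cell survival factor BAFF and its relative APRIL, Tnfrsf13b, which encodes TACI (12926 to 6310, -1.03 ± 0.11), and Tnfrsf13c, which encodes BAFF-R (10927 to 5621, -0.96 ± 0.13).

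Families read from gene symbols alone had medians from -0.42 to 0.37, a narrower range than the lists. The highest of the 69 families with at least 20 tested genes were Dusp (0.37, 10 of 20 higher), Cyp genes of cytochrome P450 enzymes (0.36, 8 of 20 higher) and Zfp genes of zinc finger proteins. Of the 329 Zfp genes 159 rose (48.3%) and 31 fell (9.42%), with a median of 0.29 and a median level of 88.4 counts per kb. Zbtb genes, which are also zinc finger genes, had a median of 0.24 and 17 rises against 6 falls in 38. Library totals, TMM factors and median of ratios move all changes up, so only quantile normalisation could turn the Zfp and Zbtb medians. With it they were 0.22 and 0.29. The lowest were Arhgap genes of small GTPase regulation (-0.42, 15 of 29 lower, median span 86.9 kb), Kif genes of kinesin motors (-0.42, 17 of 30 lower) and genes with symbols in Bcl (-0.37, 10 of 21 lower). Protein-coding genes had 28.7% higher and 28.6% lower. Processed pseudogenes had 9.97% and 11.8%, and immunoglobulin V genes 2.08% and 3.65%.

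Summed over genes, more counts were lost than gained with size factors. The total was 25250800 with LPS and 23021700 with etoposide. Losses came to 19.4% of the LPS total and gains to 10.6%. With library totals the gains and losses were 15.3% each, and they match by construction because that scaling sets both totals equal. Of the losses 482 genes made up 50%, and of the gains 348 genes did.

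The largest single losses in counts came from abundant transcripts. Beyond Ighm, the losses were led by Actb, which encodes beta-actin (74879 to 39884 counts, -0.91 ± 0.05), the desaturase gene Scd1 (53913 to 27895, -0.95 ± 0.07), Cd22 and the actin-bundling gene Lcp1 (31296 to 11783, -1.41 ± 0.14). Outside the p53 target list, which held the largest gain of all, the gains were led by Eef1a1, the elongation factor that delivers tRNAs (306306 to 336859, 0.14 ± 0.05, adjusted p = 0.00777), Cad, the lectin gene Mlec (10106 to 20284, 1.01 ± 0.09), the ribosomal stalk gene Rplp0 (80600 to 90578, 0.17 ± 0.06, adjusted p = 0.00884) and Cep170b (561 to 10412, 4.21 ± 0.10). The calls of Eef1a1 and Rplp0 were lost without a filter on low values, and that of Rplp0 also with quantile normalisation.

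Genes in common use as references were not all stable. Of 17 tested 10 did not pass, 4 fell and 3 rose, with a median of -0.01 that becomes 0.13 with library totals. Actb had the largest fall and Polr2a, the large subunit of RNA polymerase II, the largest rise, from 11075 to 18875 counts (0.77 ± 0.08).

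**Figure D5:**
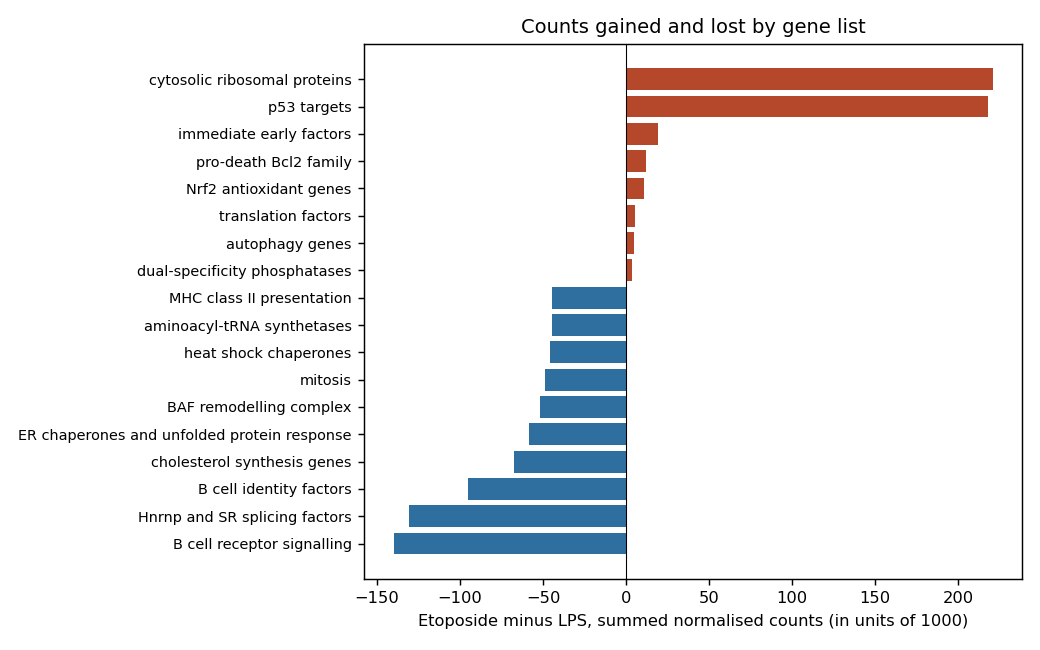
Summed normalised counts of the members of a gene list with etoposide minus those with LPS, in units of 1000 counts, for the 10 lists with the largest losses and the 8 with the largest gains. A gene can stand in more than 1 list, and bars are single sums of fitted values with no error. Ribosomal proteins gained 10.1% and B cell receptor signalling lost 48.8% of its summed counts.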

How the data were processed

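Total mRNA of LPS-activated splenic B cells was sequenced by the authors with a stranded TruSeq kit (single end). Reads were mapped with TopHat2 2.0.12 to GRCm38, counted with HTSeq on Ensembl 78 genes and fitted with DESeq2 1.6.3, tool versions per the submitters' processing notes. The authors deposited a signal, their normalised count, for each library, and per comparison a mean signal, a log2 fold change with its SE, and a test statistic and p-values, which were not used.

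Columns were tested and hold 1 fitted mean per condition times a size factor. They were divided by size factors recovered from their ratios, the constant offset to the deposited log2 fold changes and the mean signal. The mean signal is over all 12 libraries, so the columns with KU55933 entered this step. The two-sided Wald test used the log2 ratio over the deposited SE, with Benjamini-Hochberg adjustment over the genes with at least 10 counts in either condition and an SE. Of the genes past the filter 5 had no SE. The SEs come from a fit moderated towards 0, are pooled over all 12 libraries and cover 4 libraries a group. The labels do not say that replicates were separate mice, so p-values measure the spread between these samples. The test was tested on simulated data.

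Lists and members were chosen with earlier results of these data known, and no list was tested. Named genes, outside the p53 target and mitosis lists and unnamed models, were the 6 largest rises and falls at mean counts of 100 to 1000 and over 1000, the 5 largest gains and losses in counts, the 2 largest rises and falls of each list, Top2a and Top2b. Coordinates, span and exonic length are from GENCODE M21 (GRCm38), which covers 99.5% of the genes tested. Promoters were matched to 68.6% of the genes tested (1 window a gene, 250 bases before to 50 after the start). Motif shares are given for lists with at least 80% of members matched. Python 3.11.15, pandas, numpy and scipy were used. Alternatives were other scalings, filters, thresholds, pseudocounts and SEs multiplied by 1.5. Mitochondrially encoded genes were not analysed here. Some genes that the rule names are not reported here.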

Additional observations from a re-analysis of the deposited data

How the results depend on the processing

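No paired analysis was possible because the columns of a condition hold 1 fitted mean and no replicate values, and for the same reason no replicate could be left out. At mean counts of 1000 or more the 95% interval of a change reaches a median of 0.19 to each side on the log2 scale, less in the most precise genes, and at mean counts under 100 the median SE is 0.31.

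Counts of called genes stayed within 1.5 times those reported under the 4 scalings, the 3 filters and an adjusted p under 0.05 (6962 to 9319 of 8056). With a change of at least 2-fold required they were 3163, 2211 higher and 952 lower, and with SEs multiplied by 1.5 they were 5368, of which 2543 were lower. The share of higher genes among the called was 50.3% and ran from 44.8% to 62.5% under scalings and filters. Named genes kept their direction in all 1464 values under the scalings and filters, and 24 values in 16 genes fell short of the threshold. The filters do not alter a change, and library totals, TMM factors and median of ratios add 1 constant, 0.13 at most. Genes named for large changes could therefore hardly turn, and their kept direction is no check of it. Scaling by TMM factors moved all changes by 0.03 and by median of ratios by 0.02.

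List medians were compared less the median of all genes tested, against a spread of 1 SD between replicates, taken as the SE times the square root of 2. Of 499 values 31 moved further, but this spread is that of a single gene, so that smaller moves are not thereby shown to be negligible. Quantile normalisation accounted for most: p53 targets 2.73, NF-kB subunits 0.26, MHC class I 0.25, MHC class II -0.28, B cell receptor signalling -0.65, B cell identity factors -1.19, plasmablast genes 0.0726, LPS receptor and TLR signalling -0.24, ribosomal proteins 0.33, ribosome biogenesis -0.0107, translation factors 0.11, aminoacyl-tRNA synthetases -0.42, splicing factors -0.10, decay factors -0.0308, ER chaperones -0.25, heat shock chaperones 0.11, proteasome 0.14, nucleotide supply 0.0255, replication -0.0946, excision repair 0.18, topoisomerases 0.00306, BAF complex -0.21, elongation control 0.22, pro-death family 0.54 and pro-survival family -0.14. Without a filter ribosomal proteins stood at 0.0701, replication-dependent histones at -0.34, the pro-death family at 0.48 and TNF receptors at 0.87. The pro-death family stood at 0.62 with at least 10 counts in both conditions and at 0.63 with at least 50 in either. The cause was not tested. With library totals 9 of 50 raw list medians changed sign. Of 700 counts of members called 60 moved by over 1.5 times, in 30 lists.

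In the lowest level group the median was 0.11 and 21.3% of genes were higher with quantile normalisation, and 0.23 and 25.8% with at least 10 counts in both conditions, which removes the genes that pass in 1 condition only. The median of the highest group turned from -0.11 to 0.02 with library totals and to 0.03 with quantile normalisation. The median of the longest genes stayed below 0 under the 4 scalings and with at least 10 counts in both conditions or 50 in either, and the restriction to protein-coding genes, chosen after seeing the data, gave -0.44.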
